A study of Mus musculus with 9 samples.

Results

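The genes described here encode molecular chaperones and the proteins that work with them: the heat shock protein families (Hspa, Hspb, Hspd, Hspe, Hsph and Hsp90), the subunits of the cytosolic chaperonin (Cct2 to Cct8 and Tcp1) and the J-domain families (Dnaja, Dnajb and Dnajc). The families were proposed with earlier results of these data known. Their members were then taken by gene symbol, and each was read from the probe set naming that single gene with the highest mean signal over the arrays. The array named 82 such genes of 18193, on 201 probe sets, and 67 of them were among the 11644 genes bright enough to be tested. The other 15 had signals of 0.2 to 13.8 on every array, apart from 1 value of 94.4 for Hspa1a in tumour 3, and were given no test. No probe set named Hsp90ab1 or Dnajc19 alone, and both are not analysed here.

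RNA of 9 C57Bl/6 mice was hybridised to 1 expression array each, and all of these mice carried the R26NC/NC allele of the R26-βcat line, which expresses active β-catenin once Cre has acted. Controls were sorted CD4+CD8+ (DP) thymocytes of 2 mice without CD4Cre, aged 6 weeks. Pre-transformed samples were the same sorted population from 3 CD4Cre+ mice, also aged 6 weeks, with thymi of normal size. The tumour group held whole thymic tumours of 4 sick CD4Cre+ mice aged 28, 26, 23 and 21 weeks (tumours 1 to 4). CD4Cre is a Cre recombinase driven by Cd4 regulatory sequences, so that recombination is expected from the DP stage onward in thymocytes and in their progeny. Sorted cells were over 98% pure and entered an amplification kit with 0.1 µg RNA, whereas tumours held at least 95% DP cells and entered the standard labelling protocol with 2.5 µg. Labelling, sorting and age therefore cannot be told apart from tumour state, and CD4Cre itself cannot be told apart from active β-catenin.

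Chaperones bind proteins that are not yet folded or have lost their fold. HSP70 proteins hold exposed stretches of a client in cycles of ATP binding and hydrolysis. J-domain proteins deliver clients and start hydrolysis, and HSP110 proteins and other exchange factors reset the cycle. HSP90 takes over late clients such as kinases and steroid receptors. The cytosolic chaperonin, CCT or TRiC, is a chamber of stacked rings that folds actin, tubulin and some cell cycle regulators, while HSP60 (Hspd1) with its lid HSP10 (Hspe1) does the same work in mitochondria. Some of these genes are expressed in all growing cells, and others, such as Hspa1a and Hspa1b, are switched on mainly by heat shock factor under stress.

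A heat shock element, the site to which heat shock factor binds, is made of 3 units of GAA in alternating orientation, 2 bases apart. Both phases, GAANNTTCNNGAA and TTCNNGAANNTTC, were searched on both strands of RefSeq promoters of build GRCm38.p6, from 250 bases before to 50 bases after each annotated start. Of 68 members with a promoter entry 4 held such an element (5.88%): Hspd1, Hspe1, Hsph1 and Dnajb6. Among all 27025 genes with a promoter 179 held one (0.662%). The stretches around these elements are shown because Hspd1, Hspe1 and Hsph1 belong to the groups described next, with the matched letters in capitals.
Hspe1, plus strand, chr1:55088053-55088082: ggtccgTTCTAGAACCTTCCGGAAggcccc
Hspd1, minus strand, chr1:55088053-55088082: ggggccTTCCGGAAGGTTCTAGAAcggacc
Hsph1, minus strand, chr5:149636279-149636308: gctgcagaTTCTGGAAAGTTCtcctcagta
Dnajb6, plus strand, chr5:29735844-29735873: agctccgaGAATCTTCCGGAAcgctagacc
The first and second lines are the same site read on opposite strands, with 2 overlapping matches. It begins 89 bases before the Hspe1 start and 144 bases before an Hspd1 start that lies 216 bases away and points the other way, so that the pair shares this stretch. A further annotated Hspd1 start lies beyond the Hspe1 start. The Hsph1 match begins 15 bases after one of its annotated starts. An element of another spacing or outside the window would not have been found, and a match does not show that a factor bound there. The E-box CACGTG, a palindrome, was in 7 of the 68 promoters (10.3%) and in 8.09% of all genes with a promoter.

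Signals are in the units of the array software, which scaled every array to the same trimmed mean, and their changes are given on the log2 scale with the standard error (SE) of limma's fit. Calls were made at an adjusted p (Benjamini-Hochberg, over all genes tested) below 0.05. A group mean below the 65th percentile of its own arrays (40.8 in controls, 43.7 in pre-transformed cells, 35.9 in tumours) was treated as dim, so that a fold against it is a lower bound. Tumour arrays stood apart from those of sorted cells, with rank correlations of 0.793 to 0.863 between them against 0.916 to 0.952 among tumours and 0.979 to 0.991 among sorted cells. The β-actin 3′ to 5′ log2 ratio, a measure of RNA or labelling quality, was 0.54 to 1.14 in tumours and 0.20 to 0.35 in sorted cells. Of 10 marker genes of DP thymocytes 9 were above the dim level on every tumour array, and the exception was Ptcra at 2.7 to 6.8. Summed signals of the 10 were 13221 to 17420 in tumours and 28806 to 33086 in sorted cells. Summed signals of 8 myeloid markers were 2957 to 3276 in tumours 1, 3 and 4 but 155.8 in tumour 2, within the 129.5 to 249.2 of sorted cells. Lyz2 was the largest part in tumours 1, 3 and 4 (1659, 1376 and 1741). Itgam went the other way, at 113.2 in tumour 2 against 31.4, 57.7 and 23.4. Summed B cell markers were 377.4, 9.2, 303.3 and 447.2 in tumours 1 to 4, and 212 to 267 in sorted cells. The B cell markers moved in opposite directions. Cd79b was 195.8 to 253.9 in sorted cells and 80.7, 1.3, 73.6 and 108.5 in tumours. Ms4a1 was 1.5 to 8.9 in sorted cells and 197.9, 5, 138.9 and 269.7 in tumours. Cd79a was 2.7 to 5.8 in sorted cells and 95.6, 0.5, 87.2 and 67.9 in tumours. Pax5 was at most 5 on every array. Summed erythroid markers were 29.9, 4.3, 54.8 and 61.3, and 0.9 to 1.6 in sorted cells. In bulk RNA, fewer cells of a type and less RNA per cell cannot be told apart.

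Tumours differed from pre-transformed cells in most chaperone genes, as they did in most of all genes tested. Of 67 members tested, 28 were higher (41.8%) and 15 lower (22.4%), while 24 were not called. Among all genes tested 23.9% were called higher and 31% lower in the same comparison. The members' median log2 change was 0.41, against −0.12 over all genes. All 8 subunits of the cytosolic chaperonin, both HSP90 genes, both mitochondrial chaperonin genes and 8 of 11 HSP70 and HSP110 genes rose. Of 37 J-domain genes, 7 were higher and 14 lower (18.9% and 37.8%), which is near the shares of all genes. None of 4 small HSP genes was called. The split between higher and lower depended on the scaling, with 28 and 15 as deposited, 21 and 16 with each array centred on its median, and 33 and 11 with each array centred on the median of the genes tested.

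**Figure D1:**
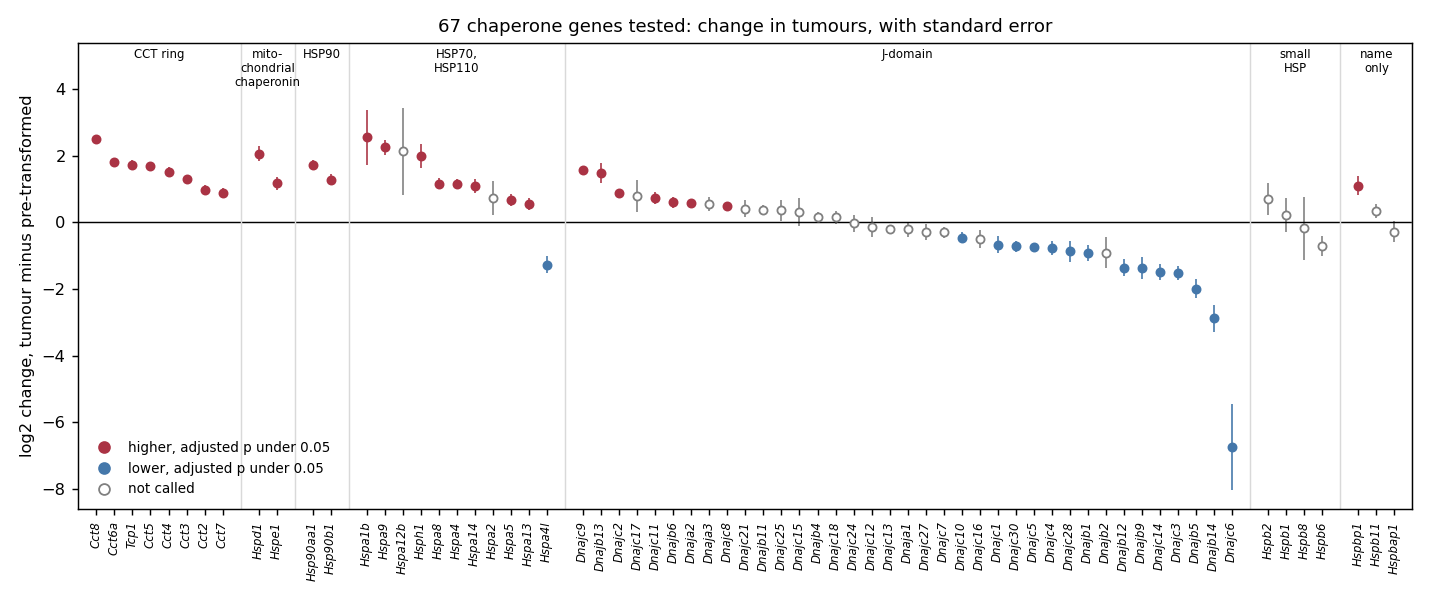
Log2 change of the 67 tested chaperone genes in tumours (n = 4) against pre-transformed cells (n = 3), ordered by size within each family; points are estimates, bars are 1 SE of limma's fit, and filled points passed an adjusted p of 0.05. The 8 CCT subunits lie between 0.88 and 2.49, whereas J-domain genes run from −6.75 to 1.56 with 7 higher and 14 lower.

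The 8 genes of the cytosolic chaperonin ring, whose products sit side by side in fixed positions of 1 complex, rose by 0.88 to 2.49 on the log2 scale, with a median of 1.61. Relative to the control mean, the average over the ring was 1.48, 1.44, 1.25 and 1.26 in tumours 1 to 4, and −0.23, −0.11 and −0.24 in the 3 pre-transformed samples. The summed myeloid signal was within that of sorted cells in tumour 2 and above it in the others, and its part in these values was not tested. Measured in this way, Cct8 rose most in every tumour, and the smallest value was that of Cct7 in tumours 1, 3 and 4 and of Cct2 in tumour 2.

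Cct8 (probe set 1415785_a_at) had signals of 535 and 627 in controls, 432, 449.8 and 518 in pre-transformed cells and 2681, 2740.3, 2239.7 and 2866 in tumours 1 to 4. Every tumour lay above every sorted sample (5.64-fold, log2 change 2.49 ± 0.13 SE, adjusted p = 5.04e-06). Cct6a, another subunit of the ring, had signals of 975 and 1069 in controls, 920.0, 1039.8 and 853 in pre-transformed cells and 3661, 3449.7, 3146 and 2973 in tumours 1 to 4. Its log2 change was 1.82 ± 0.12 SE (adjusted p = 7.56e-06), again with no overlap. Tcp1, the founding member that gave the complex its name, read 932 and 1181 in controls, 886, 1076 and 905 in pre-transformed cells and 3645, 3322, 2719.6 and 2901 in tumours 1 to 4 (log2 change 1.72 ± 0.15 SE, adjusted p = 2.17e-05). Cct5 read 1318 and 1469.9 in controls, 1104, 1457 and 1154 in pre-transformed cells and 4357, 4033, 3709 and 3890.2 in tumours 1 to 4 (log2 change 1.70 ± 0.13 SE, adjusted p = 1.22e-05). In all of these genes the difference between pre-transformed and control samples was not called. Cct4 and Cct3 rose by 1.53 ± 0.13 and 1.30 ± 0.12 SE, from means of 1029.5 and 1085 (SD 0.17 and 0.17 on the log2 scale, n = 3) to 2972 and 2673 (SD 0.17 and 0.10, n = 4).

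Cct2 and Cct7 showed the smallest changes of the ring. Cct2 read 2633 and 3096 in controls, 2538, 1799.5 and 2561 in pre-transformed cells and 4899, 4647, 4365 and 3878 in tumours 1 to 4 (log2 change 0.96 ± 0.15 SE, adjusted p = 0.000497). Its other probe sets gave larger rises, of 1.21 and 2.32. Cct7 read 1598 and 1844 in controls, 1393, 1601 and 1441 in pre-transformed cells and 2709, 3567, 2439 and 2314 in tumours 1 to 4 (log2 change 0.88 ± 0.16 SE, adjusted p = 0.00106), and with every array centred on its median it missed the threshold at an adjusted p of 0.0506. The testis paralogue Cct6b was not bright enough to be tested. The manufacturer marks probe sets (_s_at, _x_at or _a_at) that can match several transcripts, of the same gene or of others. When these were left out, 5 of the 8 genes were called. Cct2 and Cct8 had no unmarked bright probe set, and Cct3 was left with a faint one (log2 change 0.35).

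**Figure D2:**
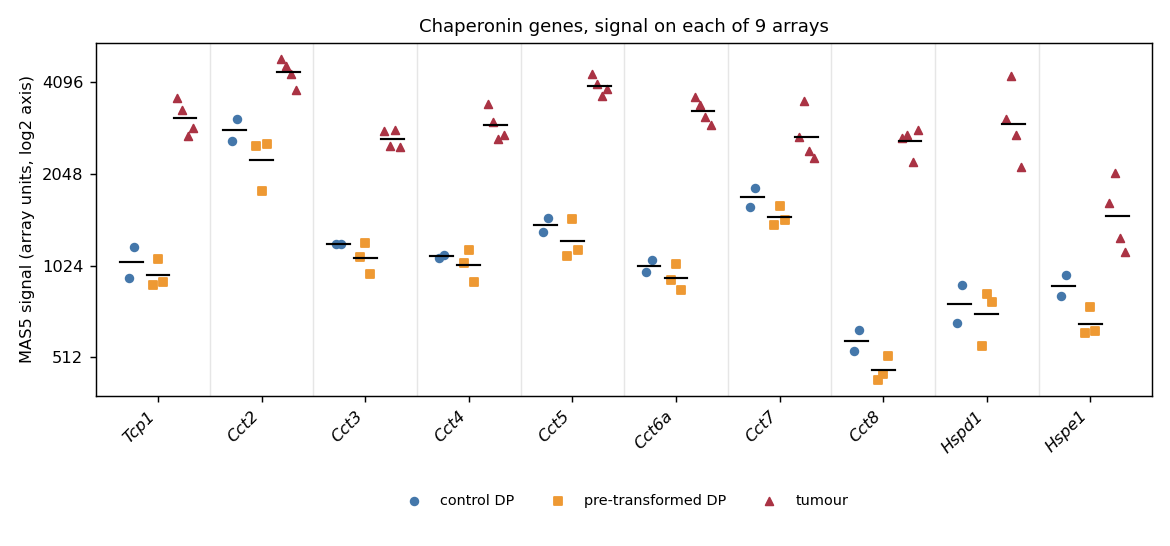
Signal of the 8 CCT genes and of the mitochondrial chaperonin genes Hspd1 and Hspe1 on each array (log2 axis); points are mice and black lines are geometric means of 2 controls, 3 pre-transformed and 4 tumour samples. In all 10 genes every tumour lies above every sorted sample, with Cct8 at 2239.7 to 2866 in tumours and 431.5 to 627 in sorted cells. The share of all genes without such overlap was not counted.

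Helpers and clients of the ring were counted from lists. Prefoldin hands actin and tubulin to CCT. Of 9 genes for prefoldin and for phosducin-like helpers, 7 were higher in tumours (77.8%, beside 23.9% of all genes) and none lower (beside 31%). Their median change was 0.94. Among them, Pfdn1 rose by 1.07 ± 0.17 SE (adjusted p = 0.000523) and Pdcl3 by 0.86 ± 0.20 SE (adjusted p = 0.00526), while Pfdn2 was not called (adjusted p = 0.138). Of 4 tested genes for classical CCT clients, 3 were higher (75%, beside 23.9% of all genes). They were the actin gene Actg1 (0.60), the tubulin gene Tubb5 (0.62) and Cdc20 (2.13), an activator of the anaphase-promoting complex. The other actin gene of the list, Actb, was not called (0.08 ± 0.11 SE, adjusted p = 0.575).

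Both mitochondrial chaperonin genes, whose annotated starts lie beside the shared stretch shown earlier, were higher in tumours. Hspd1, the HSP60 chamber, had signals of 660.4 and 887 in controls, 557, 828 and 778 in pre-transformed cells and 3102, 4305, 2741 and 2166 in tumours 1 to 4. No tumour overlapped the sorted cells (4.2-fold, log2 change 2.07 ± 0.24 SE, adjusted p = 8.43e-05). Hspe1, its HSP10 lid, read 810.4 and 955 in controls, 613, 751 and 625 in pre-transformed cells and 1644, 2065, 1263 and 1132 in tumours 1 to 4. The groups did not overlap, and the change was 2.25-fold (log2 change 1.17 ± 0.20 SE, adjusted p = 0.00093). Tumour 2 was highest and tumour 4 lowest for both genes. Hspa9, the mitochondrial HSP70 that pulls proteins across the inner membrane, read 309 and 352 in controls, 271, 263 and 273 in pre-transformed cells and 1287, 1981, 972 and 1088 in tumours 1 to 4 (4.76-fold, log2 change 2.25 ± 0.22 SE, adjusted p = 3.84e-05). Counting Dnajc11, a J-domain protein of mitochondria, 4 of 6 members listed as mitochondrial rose (66.7%, beside 23.9% of all genes) and none fell. This list was not complete, so its count does not stand for all mitochondrial members. Dnajc30, a mitochondrial J-domain protein that was not on it, fell (−0.72 ± 0.17 SE, adjusted p = 0.00578). Dnajc4 and Dnajc28, also left off the list, were called lower too, although Dnajc28 had dim means in both groups. Of 11 partners of the mitochondrial chaperones 4 were higher (36.4%, beside 23.9% of all genes) and 1 lower, and against controls 2 were higher. The higher ones included the mitochondrial HSP90 gene Trap1 (1.07 ± 0.18 SE, adjusted p = 0.000796), and the lower one was the iron-sulfur scaffold gene Iscu (−0.84 ± 0.14 SE).

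Among HSP90 genes, Hsp90aa1, the inducible cytosolic form, read 1681 and 1812 in controls, 1346, 1757 and 1126 in pre-transformed cells and 4916, 4909, 4059.6 and 4446 in tumours 1 to 4. All tumours lay above all sorted samples (3.3-fold, log2 change 1.72 ± 0.15 SE, adjusted p = 2.58e-05). Its other probe sets differed in size, with log2 changes of 3.15 and 0.42. The weaker of them (1437497_a_at) read 2766, 3082, 586 and 1043 in tumours 1 to 4, against 1069, 1172 and 1139 in pre-transformed cells, so that tumours 1 and 2 lay above all sorted cells and tumours 3 and 4 below all of them. The β-actin 3′ to 5′ ratio was 0.62 and 0.54 in tumours 1 and 2, and 0.92 and 1.14 in tumours 3 and 4, and its part in this split was not tested. Hsp90b1, the HSP90 of the endoplasmic reticulum (ER), read 615 and 648 in controls, 474, 675 and 446 in pre-transformed cells and 1302, 1450.1, 1204 and 1139.5 in tumours 1 to 4 (log2 change 1.28 ± 0.16 SE, adjusted p = 0.00016). Its second probe set read 352 and 376 in controls, 258, 186 and 188 in pre-transformed cells and 895, 830.1, 244 and 326 in tumours 1 to 4, so that tumours 1 and 2 lay above all sorted cells and tumours 3 and 4 lay within their range.

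Of 23 tested cochaperones of HSP90 and HSP70, 9 were higher (39.1%) and 4 lower (17.4%) in tumours, beside 23.9% and 31% of all genes. The median change of the list was 0.29. Bag2, an exchange factor for HSP70, rose most, from 20.7, 24 and 17.7 in pre-transformed cells to 209.8, 345, 141 and 102 in tumours. Its pre-transformed signals were dim, which makes the fitted change of 3.12 ± 0.38 no measured fold. Fkbp4, an immunophilin that binds HSP90, rose by 2.25 ± 0.25 SE (adjusted p = 6.98e-05), and Stip1, the adaptor that joins HSP70 to HSP90, by 1.44 ± 0.17 SE (adjusted p = 0.000104). Ahsa1, which activates the HSP90 ATPase, rose by 1.07 ± 0.13 SE. Stub1, which encodes a ubiquitin ligase acting on chaperone clients, had a change of −0.81 ± 0.18 SE (adjusted p = 0.00361), and Unc45a, a myosin chaperone, one of −0.86 ± 0.17 SE (adjusted p = 0.00175).

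The cytosolic and nuclear HSP70 machinery rose in part. Hspa8, the constitutive HSP70, had signals of 3699 and 3907 in controls, 2508, 3356 and 2837 in pre-transformed cells and 6239, 5724, 8694 and 5614 in tumours 1 to 4. All tumours lay above all sorted samples, and tumour 3 was the highest (log2 change 1.17 ± 0.17 SE, adjusted p = 0.000283). Of its other probe sets 1.03 and 2.33 were measured in the same direction and −0.77 in the other, which was not called. Hspa4, an HSP110 relative, read 692 and 781 in controls, 762, 715 and 685 in pre-transformed cells and 1409, 1883, 1445 and 1764 in tumours 1 to 4 (log2 change 1.16 ± 0.14 SE, adjusted p = 0.000105). Its probe sets disagreed, since 1416147_at fell from 98.7, 123 and 115 in pre-transformed cells to 12.9, 73, 42.3 and 14.7 in tumours, a log2 change of −2.02 that was itself called over all probe sets. The direction for Hspa4 thus rests on its brightest probe set. Hsph1, the HSP110 exchange factor with the element shown earlier, read 229 and 207 in controls, 109, 199.7 and 130.5 in pre-transformed cells and 442, 907, 801 and 308 in tumours 1 to 4 (log2 change 1.99 ± 0.37 SE, adjusted p = 0.0013). Tumours 2 and 3 were highest, and no tumour overlapped the sorted cells. Hspa14, an HSP70 that works at the ribosome, read 351 and 399 in controls, 281, 399 and 366 in pre-transformed cells and 907, 867, 525 and 730.5 in tumours 1 to 4 (log2 change 1.10 ± 0.21 SE, adjusted p = 0.00158).

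Hspa4l, a relative of Hspa4 that is best known from testis, was the sole member of this family to fall. Its signals were 260.2 and 292 in controls, 239.7, 240.3 and 248 in pre-transformed cells and 59.5, 121, 108 and 134 in tumours 1 to 4, with all tumours below all sorted samples (log2 change −1.27 ± 0.26 SE, adjusted p = 0.00244). All 5 of its probe sets fell, by 1.26 to 2.21 on the log2 scale. The stress-inducible Hspa1b read 16.2 and 10.5 in controls, 11.8, 14.3 and 3.7 in pre-transformed cells and 26.1, 26, 275 and 35.1 in tumours 1 to 4. It was dim in both groups of sorted cells, and tumour 3 stood far above the other tumours, which were themselves below the dim level. The tumour mean was at least 1.16-fold higher than the pre-transformed mean (adjusted p = 0.0238). Without tumour 3 both groups were dim (adjusted p = 0.0225), and without pre-transformed 3 the call was lost (adjusted p = 0.101). Hspa1a, a near-identical neighbour whose probes may share signal with it, was 7.2, 0.8, 94.4 and 10.2 in the same tumours, and the Hspa1b probe set 1427126_at gave 6, 2.5, 148 and 5, so that these too were high in tumour 3 alone. Of 7 tested immediate early genes, which respond to handling, Atf3 was higher in tumours and Egr1, Ier2, Jun and Junb were lower. These were 14.3% and 57.1% of the list, beside 23.9% and 31% of all genes. Atf3 was dim in all 3 groups, at 18.9, 2.5, 27.3 and 10.1 in tumours 1 to 4 and 0.2 to 4.7 in sorted cells. In tumour 3, Egr1 read 220.8 against 79.1, 30.7 and 201.3 in the others, and Jun read 20, and the part of handling in the Hspa1b signal was not tested. Hspa2 and Hspa12b were dim in all groups and were not called. Without tumour 2, Hspa12b passed (adjusted p = 0.0174), still at dim means. It read 36.6 and 36.4 in tumours 3 and 4, and 0.8 to 6.6 on every other array.

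Hspa5, the ER HSP70 also called BiP, read 1647 and 1654 in controls, 2056, 1183 and 1421 in pre-transformed cells and 2542, 2602, 2408 and 2059 in tumours 1 to 4. All tumours lay above all sorted samples, although tumour 4 was barely above pre-transformed 1 (log2 change 0.66 ± 0.18 SE, adjusted p = 0.0103). Hspa13, a microsomal HSP70, rose by a similar step, with signals of 123 and 126 in controls, 125, 133 and 105 in pre-transformed cells and 158, 214, 155 and 190.0 in tumours 1 to 4 (log2 change 0.56 ± 0.18 SE, adjusted p = 0.0242). Neither call held with each array centred on its median (adjusted p = 0.14 and 0.332), Hspa5 also missed with quantile normalization (adjusted p = 0.1995), and Hspa13 missed without pre-transformed 1 (adjusted p = 0.0568) or pre-transformed 3 (adjusted p = 0.108). Among 9 tested members listed as ER proteins, these and Hsp90b1 rose, while the J-domain genes Dnajb9, Dnajc1, Dnajc3 and Dnajc10 fell. That is 33.3% higher and 44.4% lower, beside 23.9% and 31% of all genes. Dnajb12 and Dnajc14, ER membrane proteins that were not on this list, fell too. Of 15 other ER folding genes 7 were higher (46.7%, beside 23.9% of all genes). Among them were Creld2 (0.94 ± 0.16 SE, adjusted p = 0.000845) and the exchange factor gene Hyou1 (0.83 ± 0.29 SE, adjusted p = 0.0321). Xbp1, a transcription factor of the unfolded protein response, was the sole one to fall (−1.26 ± 0.20 SE, adjusted p = 0.000621), and Ddit3 was not called (adjusted p = 0.124).

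**Figure D3:**
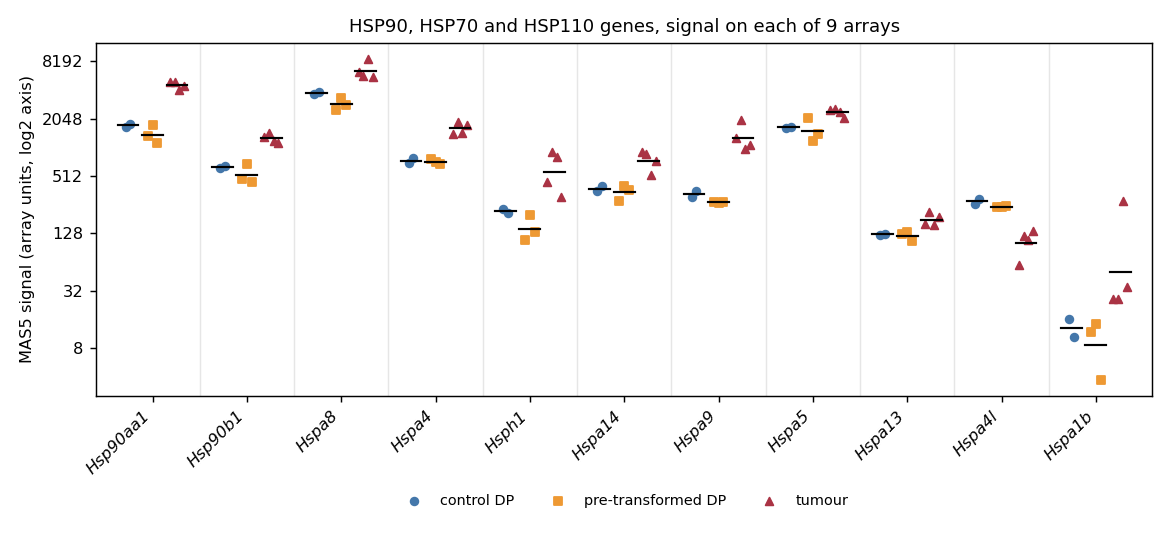
Signal of HSP90, HSP70 and HSP110 genes on each array (log2 axis); points are mice and black lines are geometric means of 2 controls, 3 pre-transformed and 4 tumour samples. Hspa4l is the gene whose tumours lie below the sorted cells, and Hspa1b is at 275.4 in tumour 3 against 26 to 35.1 in the other tumours.

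J-domain genes were spread over both directions. By class, 1 of 3 Dnaja genes was higher and none lower, 2 of 10 Dnajb genes were higher and 5 lower, and 4 of 24 Dnajc genes were higher and 9 lower. The family's median change was −0.21. That of all genes was −0.12, and the 14 lower genes made up 37.8% of those tested, beside 31% of all genes. With arrays centred on the median of the genes tested, 11 J-domain genes were higher and 10 lower, so the balance within this family turned with the scaling.

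Dnajc9, a J-domain protein that also binds histones, rose most. Its signals were 749.8 and 851 in controls, 578, 469 and 593 in pre-transformed cells and 1667, 1523, 1467 and 1790.0 in tumours 1 to 4, so that all tumours were above all sorted samples (2.96-fold, log2 change 1.56 ± 0.13 SE, adjusted p = 2.24e-05). Dnajb13, a sperm flagellum gene, read 10.3 and 10.2 in controls, 12.3, 18.5 and 17 in pre-transformed cells and 40.6, 62, 40.8 and 36.2 in tumours 1 to 4. Its sorted signals were dim, so that no fold is given (adjusted p = 0.00274). Smaller rises, of 0.49 to 0.87, were called for Dnaja2, Dnajb6, Dnajc2, Dnajc8 and Dnajc11. Dnajc2, a ribosome-bound partner of Hspa14, rose by 0.87 ± 0.15 SE. Dnajb6, which keeps aggregation-prone proteins soluble, read 754 and 835 in controls, 639.9, 555 and 629 in pre-transformed cells and 1101, 928, 713 and 980.4 in tumours 1 to 4 (log2 change 0.60 ± 0.16 SE, adjusted p = 0.00956), but its 4 probe sets ran from −1.78 to 2.12, so that its isoforms or probes disagreed.

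Dnajc6, which encodes auxilin, the J-domain protein that strips clathrin from vesicles, had the largest fall. It read 388 and 446 in controls, 412, 412 and 449.5 in pre-transformed cells and 1.1, 7.6, 0.5 and 57.4 in tumours 1 to 4. The sorted cells were all near the same level, and the tumours spread from the bottom of the scale to a signal above the dim level in tumour 4. The fall was at least 11.8-fold (adjusted p = 0.00165), and a second probe set read 119.8, 66.5 and 118 in pre-transformed cells and 0.3, 0.4, 1.4 and 17.6 in tumours. Dnajb5 read 45.8 and 37.4 in controls, 70.1, 79.8 and 57.3 in pre-transformed cells and 12.9, 15.8, 22.4 and 19.4 in tumours 1 to 4, a fall of at least 1.91-fold (adjusted p = 0.000271), and its probe set without the manufacturer's mark missed the threshold (adjusted p = 0.0502). Dnajb12, an ER membrane protein, read 52.2 and 71 in controls, 104, 81.2 and 88.4 in pre-transformed cells and 41.7, 44.9, 30.8 and 26.9 in tumours 1 to 4, a fall of at least 2.53-fold (adjusted p = 0.00148), although its second, dimmer probe set changed by −0.14 and was not called.

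Dnajc3, an ER protein known as an inhibitor of the kinase PERK, read 1281 and 1292 in controls, 1071, 983 and 1074 in pre-transformed cells and 521, 271, 314 and 402 in tumours 1 to 4 (2.85-fold lower, log2 change −1.51 ± 0.20 SE, adjusted p = 0.000215). Of its 5 probe sets 3 fell and 2 had positive changes that were not called, and the mean over its probe sets missed the threshold (adjusted p = 0.0579). Dnajb9, the ER partner of BiP known as ERdj4, read 612 and 482 in controls, 715, 277 and 275 in pre-transformed cells and 121, 131, 169 and 178 in tumours 1 to 4 (log2 change −1.36 ± 0.32 SE, adjusted p = 0.00538). Pre-transformed 1 stood well above the other pre-transformed samples, and each tumour was still below all sorted ones. Dnajc14, which resides in the ER membrane, read 402 and 366 in controls, 340.3, 434 and 362 in pre-transformed cells and 85.6, 133, 187 and 152 in tumours 1 to 4 (log2 change −1.49 ± 0.25 SE, adjusted p = 0.000676). Dnajb1, the HSP40 partner of inducible HSP70, was singled out after its values were seen. It read 1289 and 909 in controls, 976, 1487 and 1203 in pre-transformed cells and 432, 767, 772 and 655 in tumours 1 to 4 (log2 change −0.91 ± 0.24 SE, adjusted p = 0.00842), with every tumour below every sorted sample. Lower calls of 0.45 to 0.91 were made for Dnajb1, Dnajc1, Dnajc4, Dnajc5, Dnajc10 and Dnajc30. For Dnajc1 and Dnajc10, tumour 4 lay within the pre-transformed range. Dnajc28 was called lower with dim means in both groups, at 36.7, 39.6 and 45.6 in pre-transformed cells and 17, 25.8, 18.6 and 29.5 in tumours. Dnajb14 was also called lower but was dim in all 3 groups.

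**Figure D4:**
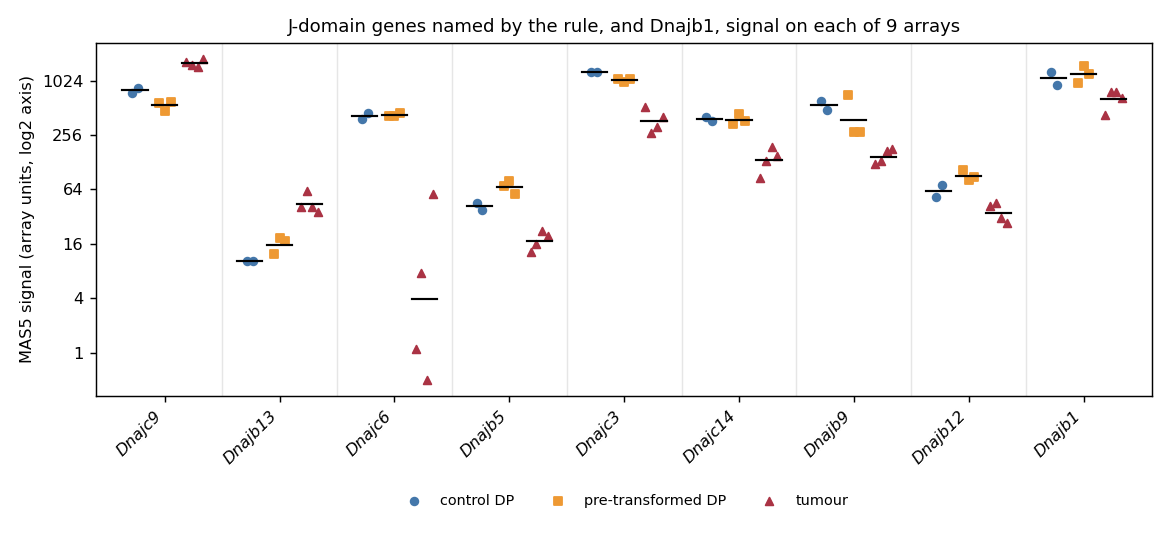
Signal of the J-domain genes with the largest called rises and falls, and of Dnajb1, on each array (log2 axis); points are mice and black lines are geometric means of 2 controls, 3 pre-transformed and 4 tumour samples. Dnajc6 is at 388.3 to 449.5 in sorted cells and 0.5 to 57.4 in tumours, while Dnajc9 is at 469.4 to 851 in sorted cells and 1467 to 1790.0 in tumours.

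Of the 43 called members 10 had 1 bright probe set. For the other 33, 23 had all bright probe sets on the same side of 0, and the exceptions were Dnaja2, Dnajb6, Dnajc1, Dnajc2, Dnajc3, Dnajc5, Dnajc10, Dnajc11, Hspa4 and Hspa8. Of 3 members with an Hspb symbol that are not small HSP genes, Hspbp1 rose (1.11 ± 0.28 SE, adjusted p = 0.0078). It is an HSP70 exchange factor gene and was not on the cochaperone list. Hspb11, a ciliary transport gene, and Hspbap1 were not called. All 4 tested small HSP genes, Hspb1, Hspb2, Hspb6 and Hspb8, were dim in every group. The heat shock factor list could be tested for Hsf2 and Hsbp1 alone, and neither was called between tumours and pre-transformed cells. Against controls, Hsbp1, which encodes a protein that binds heat shock factor, was lower in tumours (−0.64 ± 0.20 SE, adjusted p = 0.0242).

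Against controls, the tumours gave 25 members higher (37.3%) and 13 lower (19.4%) of 67, with 20.5% of all genes called higher and 25.2% lower. The median log2 change of members was 0.42, against −0.08 over all genes. This comparison uses the same 4 tumours as the one before and 2 control mice. All 8 CCT genes were higher again, by 0.63 to 2.18. With quantile normalization, and with each array centred on its median, 6 of them were called. Cct2 (adjusted p = 0.32 and 0.41) and Cct7 (adjusted p = 0.10 and 0.44) then missed the threshold. Cct8 rose by 2.18 ± 0.15 SE (adjusted p = 2.89e-05) and Cct2 by 0.63 ± 0.17 SE (adjusted p = 0.0132). Hspd1 rose by 1.96 ± 0.27 SE (adjusted p = 0.000429), Hspa9 by 1.96 ± 0.25 SE (adjusted p = 0.000319) and Hsp90aa1 by 1.39 ± 0.17 SE (adjusted p = 0.000291). Dnajc6 was at least 11.6-fold lower (adjusted p = 0.00473), and Dnajc3 changed by −1.82 ± 0.23 SE (adjusted p = 0.000319). Hspa5 (log2 change 0.54 ± 0.20 SE, adjusted p = 0.0524), Hspa13 (0.51 ± 0.20 SE, adjusted p = 0.0628) and Dnajb6 (0.21 ± 0.18 SE, adjusted p = 0.356) did not pass against controls. Whether their changes differ between both comparisons was not tested. Dnajb4, called against controls alone, had a change of 0.56 ± 0.18 SE (adjusted p = 0.0287). The counts depended on the controls and the scaling. Without control 1 they were 13 higher and 7 lower, and Cct2, Cct7, Hspa8, Hspa14, Hspe1, Hsph1, Dnajb1, Dnajb5 and Dnajb12 were among the calls lost. Without control 2 they were 18 and 8, and with each array centred on its median 12 and 16. With each array centred on the median of the genes tested they were 31 and 8.

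Pre-transformed DP thymocytes were compared with controls to ask what active β-catenin changes before tumours form. Chaperone genes differed little. Of 67 members 1 was higher (1.49%) and 1 lower (1.49%), beside 1.11% of all genes higher and 0.524% lower. Before adjustment, 6 members were higher and 11 lower at a p below 0.05 in limma's fit. The share of all genes at that unadjusted threshold was not counted, so no trend is read from these counts. The median log2 change of members was −0.08, against 0.02 over all genes. No gene of the CCT ring, HSP90, HSP70 or mitochondrial chaperonin groups was called.

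Dnajc7, a J-domain protein that holds both HSP70 and HSP90, read 1367 and 1376 in controls and 1949.8, 2041 and 1887 in pre-transformed cells. The groups did not overlap (1.43-fold, log2 change 0.51 ± 0.09 SE, adjusted p = 0.0411), and tumours, at 1427, 1959, 1257 and 1809, overlapped both groups. Dnajc17, a J-domain protein linked to splicing, read 379 and 373 in controls and 213, 183 and 122 in pre-transformed cells. Its log2 change was −1.16 ± 0.21 SE (adjusted p = 0.0413). Its second probe set changed by −0.14, and its tumour signals ran from 111.4 to 564. Neither call held without control 1, without control 2 or without pre-transformed 3, and that of Dnajc7 was also lost without pre-transformed 1 (adjusted p = 0.0849). The next smallest p-values belonged to Dnajc9, which was lower at 578, 469 and 593 against 749.8 and 851 (log2 change −0.56 ± 0.13 SE, adjusted p = 0.0811), to Dnajb6 (−0.39 ± 0.11 SE, adjusted p = 0.125) and to Dnajb5 (0.73 ± 0.21 SE, adjusted p = 0.133). None of these 3 passed. Among partners, 1 of 23 cochaperones was lower (4.35%, beside 0.524% of all genes) and none higher. It was the HSP90 immunophilin gene Fkbp5, a well-known glucocorticoid target (log2 change −0.63 ± 0.11 SE, adjusted p = 0.0326). This call was lost without control 2, without pre-transformed 3, with no trend and with all 9 arrays in the fit. In each of these settings no gene was called lower. Of 15 other ER folding genes 1 was higher (6.67%, beside 1.11% of all genes) and none lower. It was Atf6, a sensor of ER stress, at 85.9, 109.6 and 102 against 41.3 and 44.3 (log2 change 1.21 ± 0.18 SE, adjusted p = 0.0232). Whether the Atf6 call held under the alternatives was not tested.

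**Figure D5:**
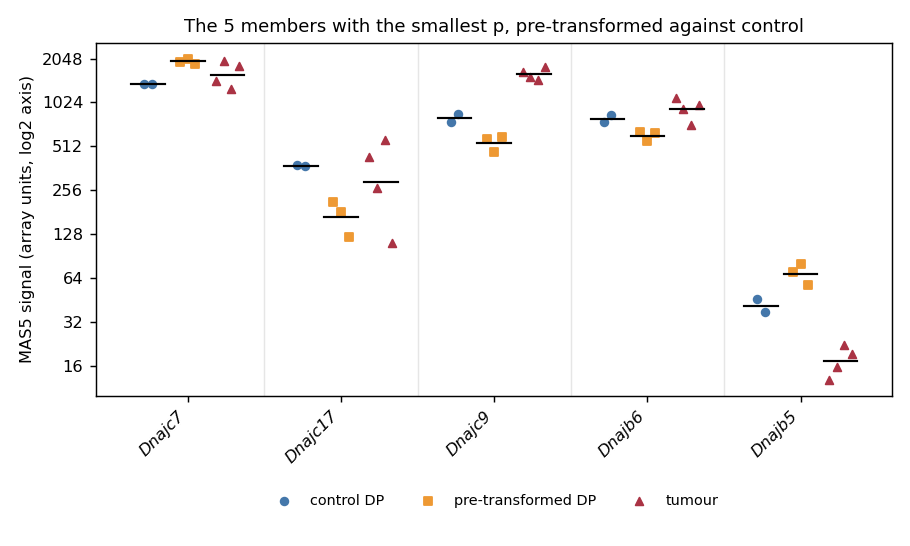
Signal of the 5 chaperone genes with the smallest p for pre-transformed against control, on each array (log2 axis); points are mice and black lines are geometric means, with the tumours beside them. Dnajc7 and Dnajc17 passed the adjusted threshold, and Dnajc9, Dnajb6 and Dnajb5 did not.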

How the data were processed

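RNA of 9 mice was measured on Affymetrix Mouse 430 2.0 arrays. The authors deposited 1 table of linear MAS5 signal intensity per probe set, per the submitters' processing notes, with the software version not given in the sources used here. As tested on the table, the mean of each array without the top and bottom 2% was 100, and 218 values were 0. Array number limits the precision. From 45101 probe sets 64 controls were left out, signals were taken to log2 with 0 set to 0.1, and 26421 probe sets at or above their array's median on at least 2 arrays were kept. Symbols came from GEO's platform annotation (34945 probe sets with 1 gene, 932 with several, 9160 with none), updated through RefSeq. The kept probe set with the highest mean stood for a gene, giving 11644 genes.

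Tests used lmFit and eBayes with a trend, of limma 3.58.1, run in R 4.3.3. Both sorted groups were fitted alone on 5 arrays, and tumour comparisons on all 9. Calls are at a Benjamini-Hochberg adjusted p under 0.05. The method was tested on simulated data. P-values set a difference between groups against the spread between mice, as moderated over genes by limma. In tumour comparisons that difference also holds labelling, sorting and age. Means are geometric and SDs are of log2 values. Overlap between groups was read gene by gene, and its share over all genes was not counted. Where a group mean lay under the 65th percentile of its arrays, that level replaced it in folds given as at least a value, and no fold is given where both were under it.

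Members and lists were chosen with earlier results of these data known. Named were all tested genes of the chaperonin, HSP90 and HSP70 groups, the largest called non-overlapping J-domain rises and falls of at least 1 (log2), and the 5 members with the smallest p between sorted groups. Dnajb1, the partner genes named and the E-box were chosen after values were seen. By the sample titles each sample came from a mouse with a number of its own. Correlations of same-numbered samples' deviations from their group means were −0.0241 to 0.0846. These gave no sign of pairing, but with so few samples per group they could not exclude it. Alternatives were filters, scalings, an offset of 16, probe set choice, variance settings, a 2-fold minimum, a replicate block and left-out arrays. Figures used matplotlib 3.10.9.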

Additional observations from a re-analysis of the deposited data

Results flagged for a closer look

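In 3 of 67 tested members 1 tumour lay far from the other tumours by Dixon's ratio of the gap to the whole range, where chance flags about 1 group in 20. Hspa1b in tumour 3 had a ratio of 0.873, with signals of 26.1, 26, 275 and 35.1 in tumours 1 to 4. Dnajb11, a J-domain protein of the ER, had a ratio of 0.949 for tumour 4, with signals of 315, 317, 316 and 365. Dnajc27 had a ratio of 0.913 for tumour 4, with signals of 45.1, 44.4, 45.6 and 60.3. Neither Dnajb11 nor Dnajc27 was called in any comparison.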

How the results depend on the processing

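Against pre-transformed cells, leaving out 1 array at a time gave 26 to 30 members higher and 12 to 16 lower, and against controls 13 to 27 higher and 7 to 12 lower. Between sorted groups it gave 0 to 1 higher and 0 to 2 lower. The replicate block, on sample numbers that gave no sign of pairing, gave 28 higher and 15 lower against pre-transformed cells. It gave 23 and 12 against controls, and 0 and 1 between sorted groups. A 2-fold minimum left 8 lower against pre-transformed cells, and 14 higher and 7 lower against controls. Against controls, centring each array on its median gave 12 higher, centring on the genes tested (chosen after seeing the data) 8 lower, and a fit of those 2 groups alone 8 lower. Between sorted groups the higher count was 0 with no filter, array-median centring, the mean of probe sets, no trend, the replicate block, the 2-fold minimum and all 9 arrays in the fit, and the lower count was 0 with no filter, the mean of probe sets, no trend and all 9 arrays.

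With the mean of a gene's probe sets Hspa4 turned to −0.16 against pre-transformed cells and −0.46 against controls. Without probe sets marked as able to match several transcripts, of the same gene or of others, Hspa8 turned to −0.77 and −0.32. Hspa2, dim and not called, had a log2 change against controls of −0.10, and of 0.18 with centring on the genes tested, 0.55 with the replicate block and from −0.33 to 0.17 with 1 array left out (0.04 without tumour 3, 0.17 without tumour 4). The all-gene median moved from −0.12 to −0.38 with array-median centring and to 0.17 with centring on the genes tested. All-gene calls against pre-transformed cells moved from 2785 higher and 3607 lower to 1877 and 4279, or 3624 and 2699. Against controls they moved from 2387 and 2936 to 1253 and 4132, or 3246 and 2151, and between sorted groups from 129 and 61 to 77 and 113, or 120 and 63. With no trend 1 and 0 genes were called there, and with all 9 arrays in the fit 6 and 0. Apart from centring itself, the causes were not tested. Signals near background limit the small HSP genes, Hspa2 and Hspa12b.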

Other observations

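Probe sets of 1 gene did not move alike across the tumours. For Hsp90aa1, the probe set 1426645_at read 316, 373 and 462 in pre-transformed cells and 4249, 4371, 2299 and 3017 in tumours 1 to 4, while 1437497_a_at read 1069, 1172 and 1139 and 2766, 3082, 586 and 1043. For Dnajb6, 1429776_a_at rose in every tumour (412, 289.6, 102 and 173, against 41.8, 49.5 and 57.5 in pre-transformed cells), and 1429777_at fell in every tumour (25.1, 18.1, 34.1 and 36.3, against 81.5, 93.3 and 109). For Dnajc5, which encodes a protein of secretory vesicles, 1448850_a_at fell (258, 239, 252 and 238, against 872, 896 and 901), and 1460498_a_at was higher in all tumours (79.9, 62.4, 58.2 and 48.8, against 26.6, 28.4 and 24.2). The constitutive J-domain gene Dnaja1, a main partner of Hspa8, was not called in any comparison, and its pre-transformed signals alone ran from 1693 to 3543.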
